A study of Mus musculus with 2 samples.

Results

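The 55 genes described here encode the secreted ligands of the Tgf-beta and Bmp family, their receptors, their antagonists, the Smad proteins that carry the signal, the Id proteins that Bmp signals induce, and the latent Tgf-beta binding proteins (Ltbp). They were listed by name and not by a rule on their values, but with earlier results of these data known. Each was found by its Ensembl identifier in the gene tables of both libraries, which hold 43346 Ensembl genes. By role, 17 were ligands, 12 receptors, 10 antagonists and modulators, 8 Smads, 4 Ids and 4 Ltbps.

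The tissue was the facial prominence of B6NCrl mouse embryos at embryonic day 14.5, which forms the jaws, palate, nose and facial skin. Total RNA was sequenced in 2 libraries of 1 group, replicate 1 and replicate 2, each made from 10 ng of RNA, with no treated, mutant or other-stage group beside them. The labels describe each sample as 1 cranioface from 1 pup, collected on separate days, yet they also give its sex as pooled, so the number of animals behind a library is uncertain. With 1 group of 2 libraries no test between conditions exists, and an exact two-sided sign permutation test could not go below p = 0.5, so levels and differences are given as descriptions.

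Ligands of this family are secreted dimers that bring together type I and type II serine/threonine kinase receptors. Tgf-beta and activin receptors phosphorylate Smad2 and Smad3, Bmp receptors phosphorylate Smad1, Smad5 and Smad9, and both sets enter the nucleus with Smad4, where Id genes are among the best known Bmp targets. In the embryonic face these signals are known for their roles in palate growth and fusion, tooth formation, cartilage and bone.

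Replicate 1 held 30919488 expected counts and replicate 2 held 37738872, and the floor of 3 counts was 0.0761 TPM in replicate 1 against 0.0589 TPM in replicate 2 for a transcript with an effective length of 2000 bases. TPM is an abundance, the expected count per effective length scaled to a fixed total in each library. The tissue's markers were present. All 12 facial mesenchyme genes reached 1 TPM in both libraries, with a sum of 423 TPM in replicate 1 against 367 TPM in replicate 2. Chondrocyte markers summed to 1303 TPM in replicate 1 against 814 TPM in replicate 2, and 8 of 12 were lower in replicate 2 past 1.5-fold. Cornified layer markers summed to 519 and 839 TPM in replicates 1 and 2, and 7 of the 8 at a mean of 5 TPM or more were higher in replicate 2 past 1.5-fold. Skeletal muscle markers summed to 4077 TPM in replicate 1 against 5616 TPM in replicate 2, with 2 of 8 higher past 1.5-fold. Osteoblast markers summed to 3921 and 5070 TPM, with 1 of 8 higher past it. Beside these counts, 1.05% of all 10919 protein-coding genes at a mean of 5 TPM or more were higher in replicate 2 past 1.5-fold, and 0.925% lower. Macrophage markers summed to 292 and 323 TPM and basal epithelium markers to 916 and 888 TPM in replicates 1 and 2. Endothelial markers summed to 269.9 TPM in replicate 1 against 258.5 TPM in replicate 2, and brain and choroid plexus markers to 7.66 and 70.7 TPM, of which Ttr had 60.2 TPM in replicate 2. No listed marker was at 0 in both libraries. In bulk tissue such as this, fewer cells of a type and less RNA per cell cannot be told apart.

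Nearly all of the 55 genes were expressed. At 1 TPM or more in both libraries, 52 of the 55 genes (94.5%) counted as expressed, beside 63.9% of 21474 protein-coding genes. The exceptions were 3 ligands, Gdf7, Gdf6 and the activin subunit gene Inhbb. The median level over the 55 genes was 14.25 TPM, beside 5.38 TPM over all protein-coding genes. Of the 55 genes, 8 averaged 50 TPM or more, 32 with these averaged 10 or more, 12 lay at 5 to 10, 9 at 1 to 5 and 2 under 1 TPM.

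**Figure D1:**
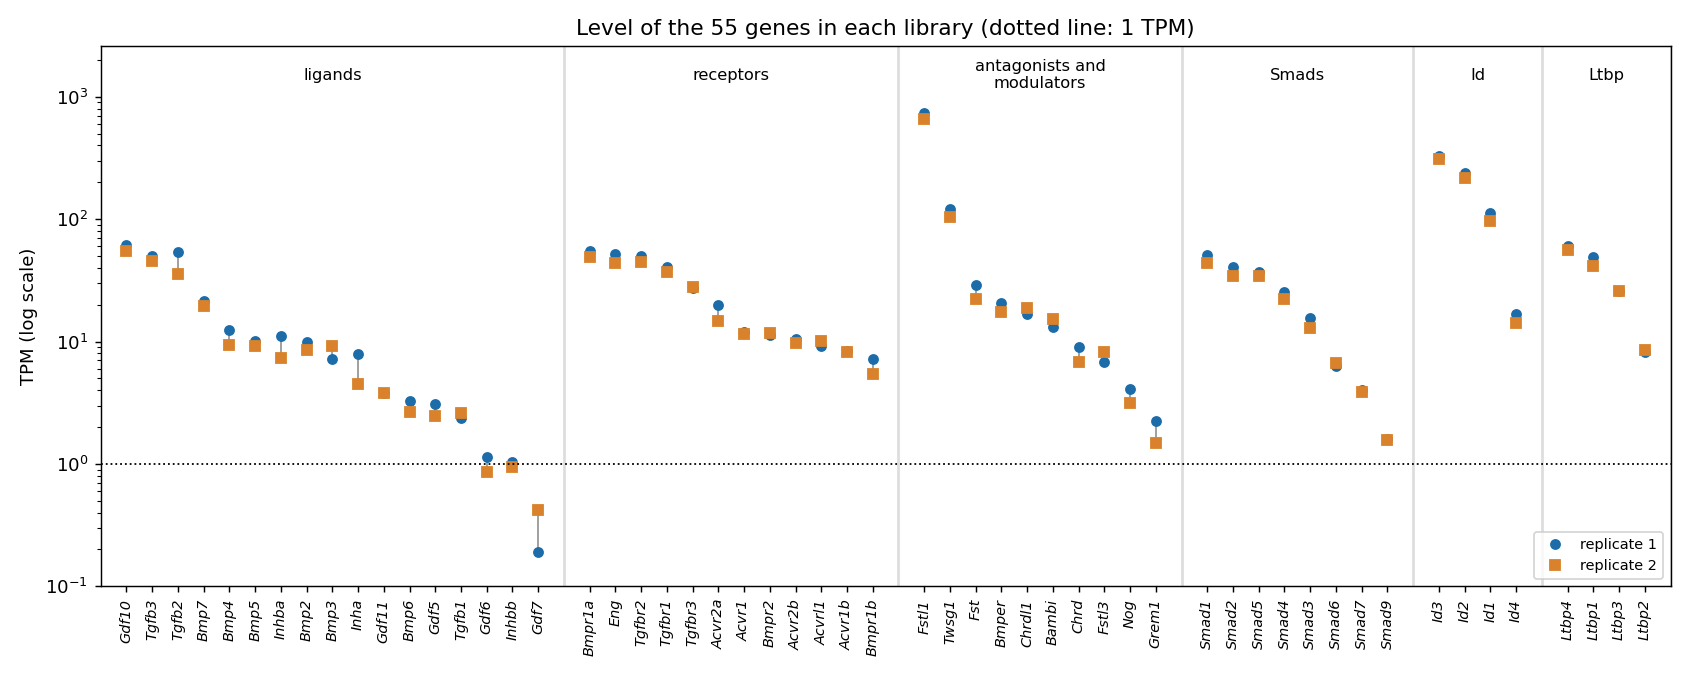
TPM on a log axis of each of the 55 genes, ordered by mean level within its class, with a circle for replicate 1 and a square for replicate 2. Fstl1 stands highest at 733 TPM in replicate 1 against 662 TPM in replicate 2, the 3 leading Id genes follow above 90 TPM with Twsg1, and Gdf7 lies under the dotted line of 1 TPM in both libraries.

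Among the classes, antagonists summed to the highest level, 907 ± 67.2 TPM (SD, n = 2), of which Fstl1 held most. Without Fstl1 the other 9 antagonists summed to 222 TPM in replicate 1 against 198 TPM in replicate 2. The 4 Ids summed to 667 ± 41.5 TPM, the 12 receptors to 288 ± 20.9 TPM and the 17 ligands to 238 ± 30.2 TPM. The 8 Smads summed to 171 ± 15.2 TPM and the 4 Ltbps to 138 ± 8.34 TPM. The order of receptors before ligands held in each library, with 303 TPM of receptors beside 260 TPM of ligands in replicate 1 and 274 beside 217 TPM in replicate 2.

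The mean level of the ligands ran from 0.305 TPM for Gdf7 to 57.8 TPM for Gdf10. Gdf10, a divergent Bmp-type ligand also called Bmp3b (ENSMUSG00000021943.6, chromosome 14, 33923587 to 33937983, plus strand, mm10), was the highest with 60.95 TPM in replicate 1 against 54.6 TPM in replicate 2, from 2894 and 3353 counts. Tgfb3, the Tgf-beta known for fusion of the palate shelves (chromosome 12, 86056745 to 86079041, minus strand), had 49.98 TPM in replicate 1 against 45.1 TPM in replicate 2. Tgfb2, which acts in neural crest derivatives of the face and heart (chromosome 1, 186622792 to 186705989, minus strand), had 53.98 TPM in replicate 1 against 35.8 TPM in replicate 2. Tgfb3 and Gdf10 held close levels in both libraries, and Tgfb2, counted over all its transcripts, stood beside them in replicate 1 alone. Tgfb1, the form best known from immune cells and vessels, had 2.37 TPM in replicate 1 against 2.62 TPM in replicate 2, from 85 and 128 counts. The 3 Tgf-beta genes summed to 106 TPM in replicate 1 against 83.5 TPM in replicate 2, beside 64.1 and 58.3 TPM for the 6 Bmp genes. On protein-coding transcripts alone the sums were closer, at 78.4 and 68.9 TPM beside 61.3 and 55.6 TPM in replicates 1 and 2.

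Tgfb2 RNA comes in forms that differ in the coding sequence. The long form, Tgfb2-206, holds 84 coding bases, or 28 codons, that Tgfb2-201 lacks, at chr1:186690721-186690804 on the minus strand of mm10. The insertion lies in the propeptide, the part that keeps the growth factor latent. It is shown because it tells the forms apart, with the extra bases in capitals and 18 coding bases of Tgfb2-206 on either side.
Tgfb2-206: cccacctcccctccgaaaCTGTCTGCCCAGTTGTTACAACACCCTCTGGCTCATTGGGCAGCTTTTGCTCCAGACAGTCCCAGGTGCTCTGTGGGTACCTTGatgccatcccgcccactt
The long form had 11.4 TPM in replicate 1 against 10.1 TPM in replicate 2, and Tgfb2-201 had 15.1 and 11.3 TPM in replicates 1 and 2. The highest transcript in replicate 1 was neither of these but Tgfb2-205, an 898 base transcript with a retained intron that GENCODE does not annotate as protein-coding, at 23.6 TPM in replicate 1 against 10.6 TPM in replicate 2. Its share of the gene's TPM was 43.6% in replicate 1 and 29.6% in replicate 2, but its share of the gene's counts was 13.9% and 8.32%, since TPM weights a short transcript up. The intervals that the quantifier gave for its TPM, whose level is not stated, ran from 18.4 to 26.8 in replicate 1 and from 6.64 to 13.6 in replicate 2 and did not overlap. For the long form they ran from 9.04 to 13.2 TPM in replicate 1 and from 8.33 to 11.4 TPM in replicate 2 and overlapped.

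Among the Bmp ligands, Bmp7, which acts in eye, tooth and skeleton, led with 21.5 TPM in replicate 1 against 19.4 TPM in replicate 2. Bmp4, a signal of facial epithelium and mesenchyme in lip, palate and tooth formation, had 12.3 TPM in replicate 1 against 9.39 TPM in replicate 2, and Bmp2, its close relative, had 9.85 and 8.52 TPM in replicates 1 and 2. Bmp5, known from the short ear mutant mouse, had 10.1 and 9.13 TPM in replicates 1 and 2. In mean level Bmp4, Bmp5 and Bmp2 followed one another at 10.9 ± 2.08, 9.59 ± 0.651 and 9.19 ± 0.941 TPM (SD, n = 2). Their order was the same in both libraries, and whether these neighbours differ was not tested. The SD includes a shift between the libraries that most genes share, so it does not measure a difference between genes. Bmp3, which antagonises other Bmps in bone, had 7.15 TPM in replicate 1 against 9.18 TPM in replicate 2, and was 1 of 3 ligands, with Gdf7 and Tgfb1, listed higher in replicate 2. Bmp6 had 3.25 and 2.68 TPM in replicates 1 and 2, from 148 and 158 counts, but 224 exonic bases of it overlap Txndc5 on the opposite strand, which had 15429 and 17793 counts, so its level is uncertain.

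The growth and differentiation factors other than Gdf10 were low. Gdf5, of joint formation, had 3.08 TPM in replicate 1 against 2.47 TPM in replicate 2. Gdf6 had 1.15 and 0.86 TPM in replicates 1 and 2, and Gdf7 (chromosome 12, 8297918 to 8301954, minus strand) had 0.19 TPM from 5 counts in replicate 1 and 0.42 TPM from 14 counts in replicate 2. Gdf11, which patterns the trunk skeleton, was alike in the libraries at 3.81 TPM in replicate 1 against 3.80 TPM in replicate 2. Of the activin and inhibin subunits, Inhba, whose product activin A acts in tooth and palate, had 11.1 TPM in replicate 1 against 7.39 TPM in replicate 2. Inha, the inhibin alpha subunit that opposes activin (chromosome 1, 75507077 to 75510366, plus strand), had 7.85 TPM in replicate 1 against 4.48 TPM in replicate 2. Inhbb, the activin beta-B subunit, had 1.03 and 0.95 TPM in replicates 1 and 2. The 3 subunits summed to 19.9 TPM in replicate 1 against 12.8 TPM in replicate 2, and each was lower in replicate 2 in TPM. Scaled to library totals, however, the counts of Inhbb were 1.01 times as high in replicate 2 as in replicate 1.

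All 12 receptors were expressed in both libraries, and all averaged 5 TPM or more. Bmpr1a, the main type I receptor for Bmp2 and Bmp4 (ENSMUSG00000021796.10, chromosome 14, 34410734 to 34503341, minus strand), was the highest at 55.2 TPM in replicate 1 against 48.96 TPM in replicate 2, from 6275 and 7106 counts. Its relative Bmpr1b, known from digit and cartilage formation (chromosome 3, 141837136 to 142169425, minus strand), was the lowest at 7.21 TPM in replicate 1 against 5.39 TPM in replicate 2. The other type I receptors were Tgfbr1, for Tgf-beta, at 40.6 and 36.8 TPM, Acvr1, for Bmps, at 11.9 and 11.4 TPM, and Acvr1b, for activin, at 8.30 and 8.16 TPM in replicates 1 and 2. Acvrl1, the Alk1 receptor of endothelium, had 9.17 TPM in replicate 1 against 10.1 TPM in replicate 2. The 6 type I receptors summed to 132 TPM in replicate 1 against 121 TPM in replicate 2, and the 4 type II receptors to 91.7 and 81.01 TPM.

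Tgfbr2, the type II receptor for Tgf-beta (chromosome 9, 116084293 to 116175360, minus strand), led the type II receptors with 50.2 TPM in replicate 1 against 44.8 TPM in replicate 2. Acvr2a, for activin and some Bmps, had 19.8 and 14.8 TPM in replicates 1 and 2, Bmpr2, the Bmp type II receptor, 11.3 and 11.7 TPM, and Acvr2b 10.5 and 9.75 TPM. Tgfbr1 and Tgfbr2, which work as a pair, were each above Acvr2a, Bmpr2 and Acvr2b in both libraries. Of the co-receptors, Eng (endoglin, of vessels; chromosome 2, 32646595 to 32682669, plus strand) had 52.02 TPM in replicate 1 against 44 TPM in replicate 2. Tgfbr3 (betaglycan, which presents Tgf-beta2 to its receptors) had 27.2 and 27.8 TPM in replicates 1 and 2.

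A few receptors had coding forms that could be told apart by sequence, shown here because the shares below count these forms. Tgfbr2-202 holds 75 coding bases, or 25 codons, that Tgfbr2-201 lacks, at chr9:116158271-116158345 on the minus strand, in the extracellular part. Acvr2b-202 holds 24 coding bases, or 8 codons, that Acvr2b-201 lacks, at chr9:119428201-119428224 on the plus strand. Eng-202 ends its coding sequence with 86 bases that Eng-201 does not code, at chr2:32681298-32681383 on the plus strand. Coordinates are mm10, capitals mark the extra bases, and 18 flanking coding bases are in lower case.
Tgfbr2-202: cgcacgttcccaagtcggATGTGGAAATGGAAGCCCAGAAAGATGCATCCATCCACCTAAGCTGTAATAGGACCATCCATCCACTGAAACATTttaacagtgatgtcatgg
Acvr2b-202: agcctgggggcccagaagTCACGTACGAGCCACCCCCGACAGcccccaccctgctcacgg
Eng-202: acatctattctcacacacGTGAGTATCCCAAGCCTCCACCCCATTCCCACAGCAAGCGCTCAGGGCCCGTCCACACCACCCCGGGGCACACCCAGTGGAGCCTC
The long form of Tgfbr2 held 32.9% of the gene's TPM in replicate 1 and 34.5% in replicate 2, and the short form held the rest. Those shares were nearly equal in the libraries. Acvr2b-202 held 76.7% of the gene's TPM in replicate 1 and 49.7% in replicate 2, so that Acvr2b-201 was in front in replicate 2 by a small margin. Its quantifier's intervals, 5.69 to 9.53 TPM in replicate 1 and 3.15 to 6.68 TPM in replicate 2, overlapped, and the gene had only 332 and 401 counts. Eng-202 held 8.52% of the TPM of Eng in replicate 1 and 16.6% in replicate 2, with overlapping intervals, and Eng-201 held 58.5% and 64.0%. Tgfbr2 and Eng were chosen for this account after their values were seen.

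**Figure D2:**
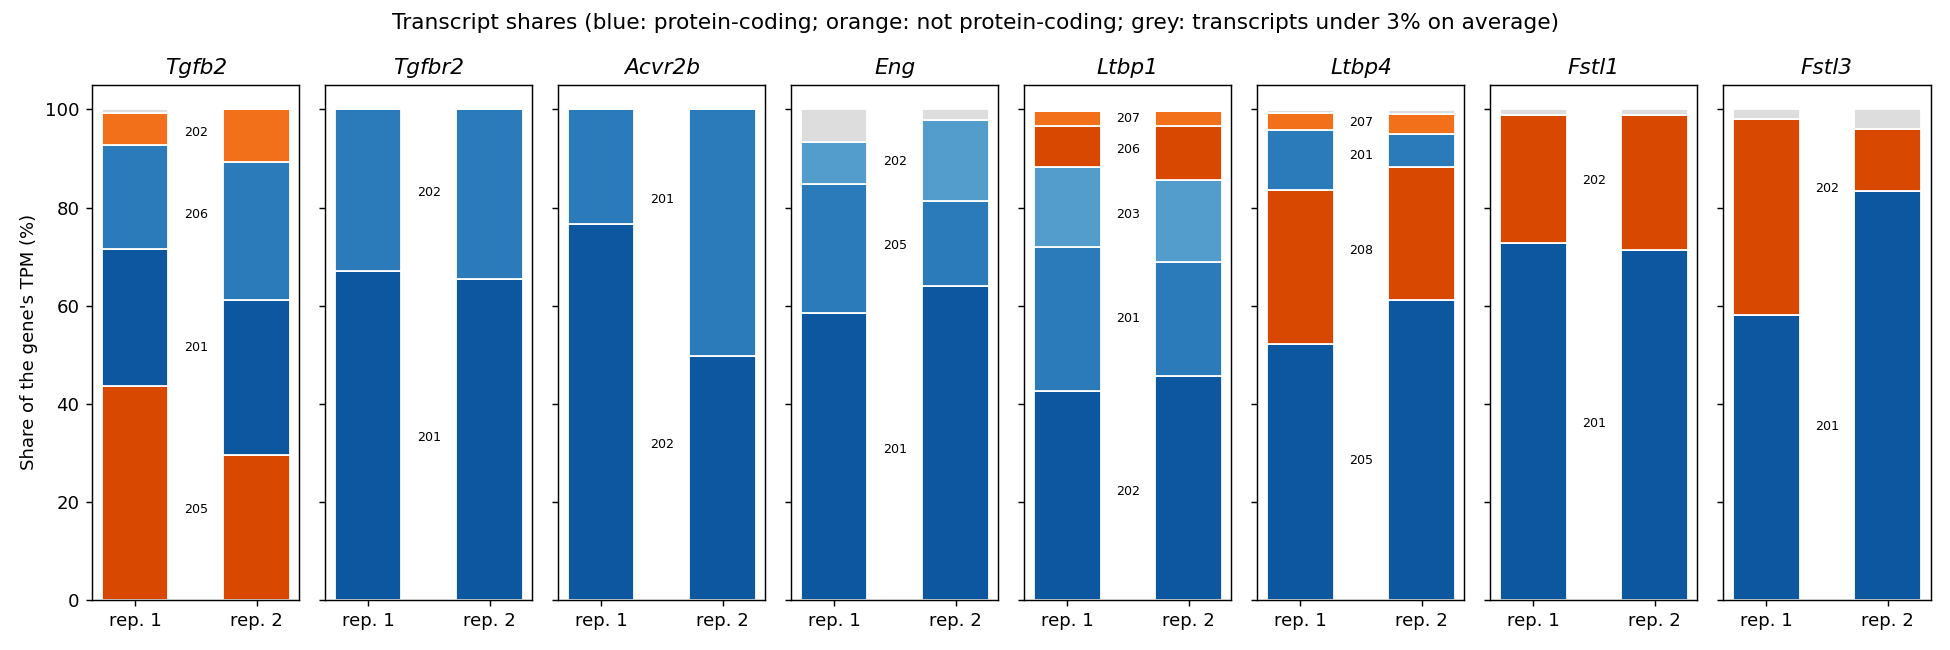
Share of each gene's TPM by transcript, in percent, for 8 genes with a bar for each library; numbers between the bars are transcript suffixes, blue is protein-coding, orange is not, and grey holds transcripts under 3% on average. The transcript at the foot of the bars is the highest on average, and the Tgfbr2 and Fstl1 bars are alike in the libraries while Acvr2b, Tgfb2 and Fstl3 bars differ.

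The antagonists were led by follistatin-type and Bmp-binding proteins. Fstl1, a secreted glycoprotein of the follistatin family (ENSMUSG00000022816.7, chromosome 16, 37776873 to 37836514, plus strand), had 733 TPM in replicate 1 against 662 TPM in replicate 2, from 41791 and 48157 counts, and ranked 156 among protein-coding genes. Twsg1, which binds Bmps and chordin (chromosome 17, 65921972 to 65951226, minus strand), had 120.5 TPM in replicate 1 against 104.7 TPM in replicate 2. Fst, which traps activin (chromosome 13, 114452290 to 114458951, minus strand), had 29.0 TPM in replicate 1 against 22.2 TPM in replicate 2. These 3 were above every other antagonist in both libraries. Bmper, a Bmp-binding regulator of vessels and cartilage, had 20.6 and 17.4 TPM in replicates 1 and 2. Chrdl1, a chordin-like Bmp antagonist, had 16.8 and 18.9 TPM, and Bambi, a membrane pseudoreceptor without a kinase, had 13.2 and 15.3 TPM.

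The classical secreted Bmp antagonists were low next to these. Chrd (chordin) had 8.99 TPM in replicate 1 against 6.79 TPM in replicate 2. Nog (noggin, which blocks Bmps in cartilage and joints) had 4.10 and 3.17 TPM, with 129 counts in each library. Grem1 (gremlin; chromosome 2, 113746164 to 113758646, minus strand) was the lowest at 2.25 TPM from 180 counts in replicate 1 and 1.47 TPM from 152 counts in replicate 2. With Chrdl1 these summed to 32.1 TPM in replicate 1 against 30.3 TPM in replicate 2, beside 64.1 and 58.3 TPM for the Bmp ligands. Fstl3, a follistatin relative that binds activin and myostatin, had 6.77 TPM in replicate 1 against 8.19 TPM in replicate 2.

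For 2 antagonists a large part of the gene's TPM lay on transcripts without a coding annotation, and these were chosen after their values were seen. Fstl1-202, an 884 base processed transcript, held 26.1% of the TPM of Fstl1 in replicate 1 and 27.5% in replicate 2, from 7.09% and 7.56% of its counts. On protein-coding transcripts alone Fstl1 had 533 TPM in replicate 1 against 473 TPM in replicate 2. Fstl3-202, another processed transcript, held 39.9% of the TPM of Fstl3 in replicate 1 and 12.6% in replicate 2. Of the 44 genes at a mean of 5 TPM or more, 3 had under 80% of their TPM on protein-coding transcripts in both libraries, namely Fstl1, Tgfb2 and Ltbp4, beside 18.7% of all protein-coding genes at that level. The other 41 did not meet that rule, and 20 had all of it there.

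All 8 Smads were expressed, and levels differed between their sets. Of the Bmp-responsive Smads, Smad1 (ENSMUSG00000031681.10, chromosome 8, 79338395 to 79399518, minus strand) had 50.96 TPM in replicate 1 against 44.03 TPM in replicate 2, and Smad5 (chromosome 13, 56703010 to 56742377, plus strand) had 37.1 and 34.4 TPM. Smad9, the remaining member of that set (chromosome 3, 54755582 to 54801257, plus strand), was the lowest Smad at 1.61 TPM in replicate 1 against 1.58 TPM in replicate 2, from 167 and 212 counts. Of the Tgf-beta-responsive Smads, Smad2 (chromosome 18, 76241580 to 76310963, plus strand) had 40.5 TPM in replicate 1 against 34.6 TPM in replicate 2, and Smad3 had 15.6 and 12.9 TPM. Smad2 and Smad5 neighbour each other in mean level at 37.5 ± 4.18 and 35.8 ± 1.90 TPM (SD, n = 2). Smad2 was the higher in both libraries, and a difference between these neighbours was not tested. Smad4, the shared partner, had 25.5 and 22.1 TPM in replicates 1 and 2. The inhibitory Smads were lower, with Smad6 at 6.37 and 6.70 TPM and Smad7 at 4.05 and 3.85 TPM in replicates 1 and 2. By sum, the Bmp set of 3 Smads had 89.7 TPM in replicate 1 against 80.02 TPM in replicate 2, the Tgf-beta set of 2 had 56.1 and 47.5 TPM, and the inhibitory set of 2 had 10.4 and 10.6 TPM.

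The Id genes, which encode helix-loop-helix proteins that block DNA binding by their partners, were the highest class per gene. Id3 (ENSMUSG00000007872.3, chromosome 4, 136143497 to 136145755, plus strand) had 329.9 TPM in replicate 1 against 307 TPM in replicate 2, from 7462 and 9036 counts, and ranked 394 among protein-coding genes. Id2 (chromosome 12, 25093799 to 25097140, minus strand) had 237.5 TPM in replicate 1 against 218 TPM in replicate 2. Id1 (chromosome 2, 152736251 to 152737410, plus strand) had 112 and 97.4 TPM in replicates 1 and 2. Id4 (chromosome 13, 48261228 to 48266026, plus strand) stood apart at 16.7 TPM in replicate 1 against 14.3 TPM in replicate 2. The order Id3, Id2, Id1, Id4 was the same in both libraries, and no member's range reached that of its neighbour.

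The promoters of the Id genes were read for GGCGCC, a motif bound by Bmp-responsive Smads that reads the same on both strands. RefSeq promoter entries on GRCm38.p6, the build also called mm10, were matched for Id2, Id3 and Id4, and Id1 is named only. In the 250 bases before the RefSeq start, Id2 held 1 copy, which begins 231 bases before it. Id4 held 1 copy, which begins 148 bases before it, and Id3 held none. The Id2 stretch, chr12:25096093-25096342, and the Id3 stretch, chr4:136143572-136143821, lie within the GENCODE spans of their genes and overlap annotated exons. Both therefore hold bases annotated as transcribed. The Id4 stretch, chr13:48260866-48261115 on the plus strand, is shown because it holds the motif, in capitals, and overlaps no annotated exon.
Id4: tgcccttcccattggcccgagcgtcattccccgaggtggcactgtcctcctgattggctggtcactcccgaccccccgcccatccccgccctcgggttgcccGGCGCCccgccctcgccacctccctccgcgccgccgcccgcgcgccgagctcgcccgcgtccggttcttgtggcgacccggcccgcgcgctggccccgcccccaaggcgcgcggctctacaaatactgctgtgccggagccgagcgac
Of the 55 genes, 39 had 47 such promoter entries. Over windows from 250 bases before to 50 after each start, 14 of 47 promoters of the 55 genes held GGCGCC (29.8%), beside 15.9% of 19931 promoters of protein-coding genes. Those windows were also richer in G and C, at a median of 66.7% for the 47 promoters and 57% for the protein-coding ones, and the part of base composition in the motif's share was not tested. GTCTAGAC, a palindrome bound by Tgf-beta-responsive Smads, was in 1 of 47, that of the inhibitory Smad6, beside 0.213% of all 32851 promoters. CAGACA, read on both strands, was in 8 of 47 (17.0%), beside 21.04% of all promoters. Both of these motifs were set beside all promoters and not beside those of protein-coding genes. All promoters had a median of 52.7% G and C, and the part of base composition was not tested here either. A match describes the letters of the window and is not a binding site.

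The 4 Ltbps, which apart from Ltbp2 anchor latent Tgf-beta to the matrix, were all expressed. Ltbp4 (ENSMUSG00000040488.12, chromosome 7, 27305136 to 27337692, minus strand) had 60.4 TPM in replicate 1 against 56.2 TPM in replicate 2, from 4119 and 5138 counts. Ltbp1 (chromosome 17, 75005568 to 75392512, plus strand) had 49.4 and 41.3 TPM in replicates 1 and 2. Ltbp3 (chromosome 19, 5740904 to 5758532, plus strand) had 25.8 and 26.0 TPM, and Ltbp2, which binds matrix but not latent Tgf-beta (chromosome 12, 84783212 to 84876532, minus strand), had 8.14 and 8.52 TPM. The order was the same in both libraries.

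Ltbp1, like Tgfb2, had a leading transcript with under 50% of the gene's TPM on average. That transcript, Ltbp1-202, held 42.6% of the TPM in replicate 1 and 45.7% in replicate 2. The long transcript Ltbp1-201, of 6671 bases, held 29.3% in replicate 1 and 23.1% in replicate 2, and its TPM intervals, 12.6 to 15.4 in replicate 1 and 8.26 to 10.4 in replicate 2, did not overlap. Ltbp1-203 held 16.3% and 16.9%. Chosen after its values were seen, Ltbp4-205 held 52.1% of the TPM of Ltbp4 in replicate 1 and 61.1% in replicate 2, and Ltbp4-208, a 550 base transcript with a retained intron, held 31.4% and 27.2%. Ltbp2-201 held 54.0% of the TPM of Ltbp2 in replicate 1 and 92.1% in replicate 2, with intervals of 2.81 to 5.81 TPM and 6.06 to 8.19 TPM that did not overlap, also chosen afterwards.

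Most of the 44 genes at a mean of 5 TPM or more rested on 1 transcript. For 13 the annotation held a single transcript, and for 30 of the 44, these 13 included, the leading transcript had 90% or more of the TPM. Of the 31 with several transcripts, the leading one differed between the libraries in 2, Tgfb2 and Acvr2b, beside 7.83% of 8153 protein-coding genes at that level. The shares of all genes with a single transcript, or with a leading transcript at 90% or more, were not computed. Whether the 44 genes differ from genes in general in this was therefore not tested.

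The level of the 44 genes differed little between the libraries. The ratio given is the log2 of TPM + 1 in replicate 2 over TPM + 1 in replicate 1, which understates the difference of low genes. Its median over the 44 genes was −0.15 with an SD of 0.21, beside −0.15 with an SD of 0.23 over 10919 protein-coding genes, so the negative sign is shared by the whole library. Of the 44, 34 were negative, beside 81.5% of all genes, and 22 lay below the median of all genes and 22 above it. Under the scalings of edgeR and DESeq2, which set the median of all genes near 0, 24 were negative and 20 positive. None was higher in replicate 2 by 1.5-fold, beside 1.05% of all genes, and 1 was lower by 1.5-fold, Inha, beside 0.925% of all genes. With every ratio centred on the median of all genes, 0 were past 1.5-fold in either direction, beside 1.87% higher and 0.275% lower among all genes.

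**Figure D3:**
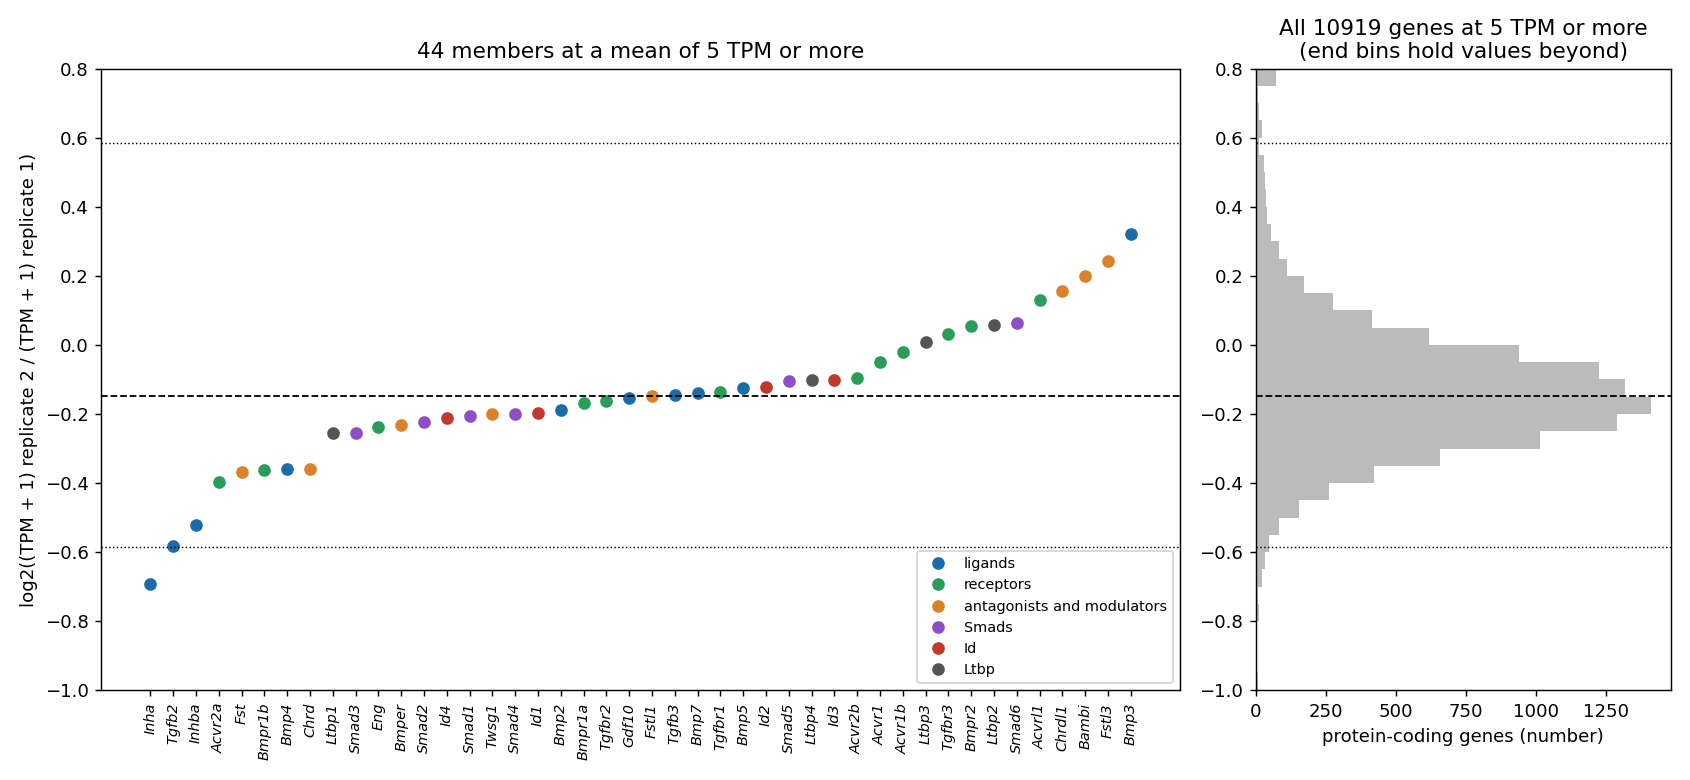
Left, the log2 ratio of TPM + 1, replicate 2 over replicate 1, of each of the 44 genes in ascending order, coloured by class; right, the number of protein-coding genes at each ratio, with values beyond the axis in the end bins. The dashed line is the median of all genes at −0.15 and the dotted lines mark 1.5-fold, and Inha alone lies past one of them.

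The lowest ratios were held by ligands of the activin and Tgf-beta groups. Inha had a ratio of −0.69, or −0.54 relative to the median of all genes. Its 213 counts in replicate 1 and 157 in replicate 2 gave a ratio, scaled to library totals, of 0.618, with an exact 95% interval of 0.4996 to 0.763 that covers counting error only. Tgfb2 had a ratio of −0.58, Inhba −0.52, Acvr2a −0.40 and Fst −0.37. For Inhba the counts were 314 and 276 in replicates 1 and 2, and for Acvr2a 2130 and 2105. Acvr2a shares 446 exonic bases with Orc4 on the opposite strand, which had 1986 counts in replicate 1 and 2528 in replicate 2. The sums of chondrocyte, facial mesenchyme, endothelial and basal epithelium markers were also lower in replicate 2, and their part in these ratios was not tested. Their median ratios were −0.68, −0.22, −0.09 and −0.21 in that order, beside −0.15 over all genes, so endothelial markers were not lower than genes in general.

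The highest ratios were held by Bmp3 and by antagonists. Bmp3 (chromosome 5, 98854415 to 98884396, plus strand) had a ratio of 0.32, or 0.47 relative to the median of all genes. Its 425 counts in replicate 1 and 705 in replicate 2 gave a ratio, scaled to library totals, of 1.39, with an exact 95% interval of 1.23 to 1.57. Fstl3 had a ratio of 0.24, Bambi 0.20, Chrdl1 0.16 and Acvrl1 0.13. Bambi had 1286 counts in replicate 1 and 1926 in replicate 2, and Chrdl1 had 1295 and 1823. The sums of osteoblast, skeletal muscle, cornified layer, macrophage and brain markers were also higher in replicate 2, and their part in these ratios was not tested.

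Non-coding transcripts bore on some of these ratios. On protein-coding transcripts alone, Tgfb2 had 26.5 TPM in replicate 1 against 21.4 TPM in replicate 2, with a ratio of −0.30 in place of −0.58. Fstl3 had 3.93 TPM in replicate 1 against 6.84 TPM in replicate 2 on them, with a ratio of 0.67 in place of 0.24. Fstl3 was then higher in replicate 2 past 1.5-fold, beside 1.09% of all genes counted in that way, and Inha remained the 1 gene lower past it, beside 0.989%. The Fstl3 values came from 144 counts in replicate 1 and 323 in replicate 2 on Fstl3-201. Inha and Bmp3 have 1 transcript each, and their ratios did not move. Fstl3 shares 1157 exonic bases with Prss57 on the opposite strand, which had 6.48 counts in replicate 1 and 1 in replicate 2.

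**Figure D4:**
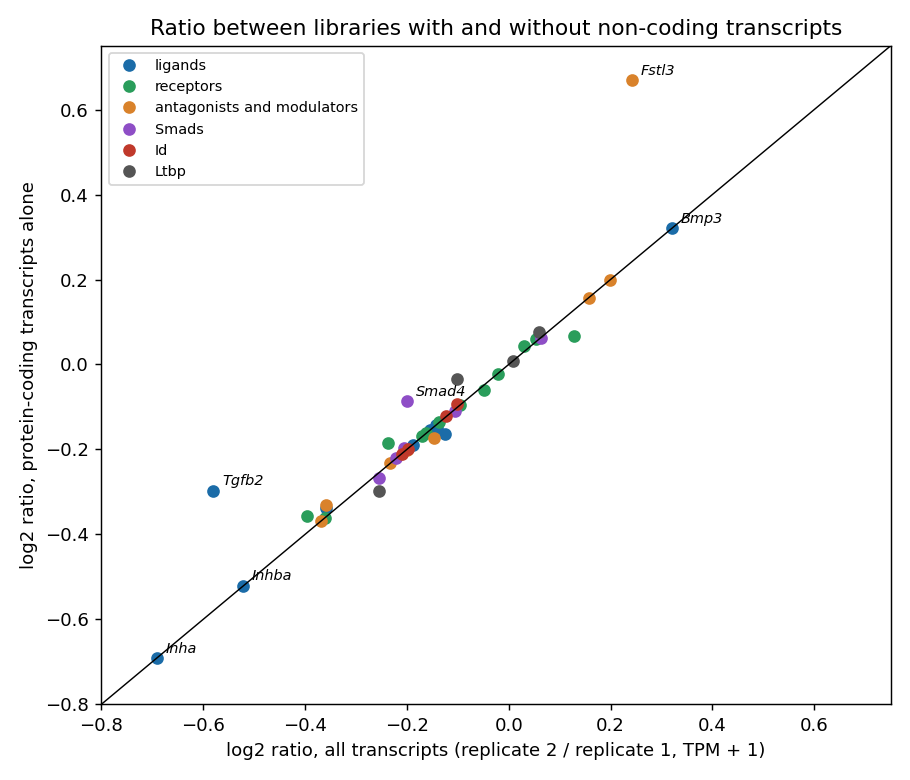
Log2 ratio of TPM + 1, replicate 2 over replicate 1, on protein-coding transcripts alone (vertical) against the same on all transcripts (horizontal) for the 44 genes, coloured by class, with the line of equality. Most points lie on or close to the line, while Fstl3 lies above it at 0.67 on the vertical and 0.24 on the horizontal axis and Tgfb2 at −0.30 and −0.58.

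A gap between counts and TPM also stood out in Ltbp2. Scaled to library totals, its counts were 1.43 times as high in replicate 2 as in replicate 1, with an exact 95% interval of 1.32 to 1.56, from 840.3 and 1437 counts, while its ratio of TPM + 1 was 0.06 on the log2 scale. The short transcripts Ltbp2-206, of 614 bases, and Ltbp2-204, of 922 bases, held 14.8% and 7.04% of its TPM in replicate 1 and none in replicate 2. These shares rested on 12.2 and 9.3 counts in replicate 1, and for both transcripts the quantifier's TPM intervals overlapped between the libraries.

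The position of the genes brought a few pairs together. Acvrl1 and Acvr1b, both type I receptors, lie 28.7 kb apart on the same strand of chromosome 15, with 9.17 and 8.30 TPM in replicate 1 and 10.1 and 8.16 TPM in replicate 2. Smad3 and Smad6 lie 195 kb apart on chromosome 9, Gdf10 and Bmpr1a 473 kb apart on chromosome 14, and Smad7 and Smad2 846 kb apart on chromosome 18. Exons of 18 of the 55 genes overlap those of another annotated gene. The expected counts of 46 were whole numbers in both libraries. The 9 with fractions, Acvr2a, Bmp5, Bmpr1a, Chrd, Fstl3, Id4, Ltbp2, Ltbp3 and Tgfb3, all overlap another gene. So do some of the 46, and whether reads shared with the overlapping gene gave the fractions was not tested. Strand handling is not given in the sources used here.

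Of 77 other genes of the pathway, 57 reached 1 TPM in both libraries. Only 3 of 15 other ligands did, led by Mstn (myostatin, of muscle) at 16.0 TPM and Lefty1 at 2.37 TPM on average. All 11 genes of matrix storage and activation did, led by Fn1 (fibronectin) with 242 TPM in replicate 1 against 210 TPM in replicate 2 and by Emilin1, which limits Tgf-beta maturation, with 184 and 155 TPM. All 15 intracellular regulators did, led by Fkbp1a, which binds type I receptors, at 485.9 TPM and Stub1 at 194 TPM on average. Of other antagonists and proteases 12 of 15 did, led by Nbl1 (a Dan family Bmp antagonist) with 108 and 94.2 TPM and by the protease Htra1 with 94.4 and 101 TPM in replicates 1 and 2. Of other receptors and co-receptors 5 of 9 did, led by the Bmp co-receptor Rgmb at 29.9 TPM and Vasn at 24.98 TPM on average. Of other targets 11 of 12 did, led by Msx1, a Bmp target of tooth and palate mesenchyme, at 61.4 TPM and Tgfbi at 55.1 TPM on average. Of the 46 of these genes at a mean of 5 TPM or more, 0 were past 1.5-fold between the libraries in either direction, beside 1.05% higher and 0.925% lower among all genes.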

How the data were processed

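Total RNA-seq tables of 2 libraries were used as deposited. The deposited expected counts estimate how many reads each gene or transcript received, per the file headers, and they were rounded for scaling factors and intervals. TPM and FPKM were deposited beside them, as was the percent of a gene's TPM held by each transcript and an interval for TPM of unstated level. Each library's companion text names mm10 and GENCODE M4. No aligner or quantifier version is named in the sources used here.

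Symbols, biotypes and coordinates came from GENCODE M21, matched by Ensembl identifier without its version. All 55 symbols matched. Of the other lists Gdf1 was not matched and is not used here, and Ctgf was matched as Ccn2. Coding sequences came from the GENCODE M21 transcripts and promoters from RefSeq. The members and lists were chosen with earlier results of these data known.

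Genes at 1 TPM in both libraries counted as expressed. Ratios used TPM with a pseudocount of 1 and genes at a mean of 5 TPM or more, and 1.5-fold as the limit. Values in detail are given for the 3 highest and the lowest gene of each class, the 5 largest ratios in each direction, and genes whose leading transcript differs between libraries, is not coding or has under 50% of TPM. Exact 95% binomial intervals and a floor of 3 counts reflect counting error alone. Count ratios used the total over Ensembl genes, 29924885 in replicate 1 and 35690824 in replicate 2.

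Alternatives were other thresholds, pseudocounts, filters, units and scalings and each replicate left out. Protein-coding transcripts alone and ratios centred on the median were added after the data were seen. The ratio rule was tested on simulated data with 200 genes changed 3-fold, so differences near 1.5-fold were not tested. The other steps were not tested in this way. Scaling factors came from edgeR 4.0.16 and DESeq2 1.42.0 under R 4.3.3, and the rest was computed with pandas 2.3.3, numpy 2.4.6 and scipy 1.17.1 in Python 3.11.15 and drawn with matplotlib 3.10.9.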

Additional observations from a re-analysis of the deposited data

How the results depend on the processing

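The count of expressed genes lay within 1.5 times of 52 under all 7 alternatives tried. The median ratio of the genes moved by less than the SD over all genes under all 8. A filter at 1 TPM took in 53 genes, and no filter took in all 55. That SD, 0.23, is larger than the size of the median, −0.15, so a scaling that sets the median near 0 could not count as a move. The median level of 14.25 TPM was 12.9 to 13.2 with 1 replicate left out, 15.7 with TPM rescaled to Ensembl genes and 14.1 on protein-coding transcripts alone. On those transcripts the antagonists summed to 710 TPM and the Ltbps to 112 TPM on average, and 1 gene, Fstl3, was higher by 1.5-fold. The number lower by 1.5-fold was 2, Inha and Tgfb2, beside 1.5% of all genes, with a pseudocount of 0.1, and 0 under edgeR's TMM scaling, DESeq2's size factors, FPKM, centred ratios and a 2-fold limit; the cause was not tested. The median over all genes was −0.15 in TPM, −0.07 in FPKM and −0.00 under both count scalings. Of the ratios of single genes 4 of 60 moved by more than that SD. Of the leading transcripts' shares 17 of 90 moved by more than their SD. All 17 were computed from counts in place of TPM, where Tgfb2-205 held 11.1%. The other settings for the shares left out 1 replicate. That cannot move a mean of 2 libraries by more than their SD, so only the count setting could move a share. None of those 60 ratios, of the 10 genes with the lowest and highest, changed sign. Over all 44 genes 34 ratios were negative in TPM, 32 in FPKM, 24 under both count scalings and 22 when centred. No paired analysis was possible because the libraries form 1 group. Genes such as Gdf7, with 5 and 14 counts, are limited by depth.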
